A study of Homo sapiens with 2 samples.

Results

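The chromatin around 8 pluripotency genes was examined in WIBR3, a line of human embryonic stem cells: LIN28A, LIN28B, DPPA2, DPPA4, L1TD1, UTF1, ZFP42 and PRDM14. They were taken by name from 19974 protein-coding genes, and every deposited ATAC-seq peak with its summit inside one of these genes or within 50 kb of it was included. This gave 187 of the 295753 peaks of the primed library and 162 of the 299673 peaks of the hTBLC library. ATAC-seq marks open DNA by the insertion of sequencing adapters. The 2 libraries were both made from WIBR3 and both carry the cell type label hESC. One was titled primed, the usual cultured state of human embryonic stem cells. The other was titled hTBLC, the blastomere-like cells that the study, on the capture of totipotency by repression of the spliceosome, set against it. The agent, dose and duration that gave the hTBLCs were not given in the labels. Each state has 1 library, so no spread between replicates is known and the states were not tested against each other. All intervals below are 95% and cover counting error only.

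The 8 genes act at different steps of the pluripotent state. LIN28A and LIN28B encode RNA-binding proteins that block maturation of the let-7 microRNAs, and L1TD1 encodes an RNA-binding protein derived from a LINE-1 element. DPPA2 and DPPA4 are neighbouring genes whose SAP-domain proteins bind chromatin together and are known for activating genes of early cleavage embryos. PRDM14, ZFP42 (also called REX1) and UTF1 encode chromatin-bound regulators of embryonic stem cells and germ cells, with PRDM14 acting in human embryonic stem cells upstream of POU5F1.

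RefSeq promoter sequences (GRCh38.p14) were matched for 6 of the 8 genes, with 7 annotated 5′ ends, since LIN28B has 2. LIN28A and PRDM14 had no entry. The promoters of 4 genes are shown because their accessibility took 4 different courses: DPPA2 was more open in hTBLCs, L1TD1 less open, the peaks at UTF1 lay at other positions, and ZFP42 had no peak at its start. Each is the 250 bases before the start, 5′ to 3′ on the gene's strand, and capitals mark the motifs given below.
DPPA2, chr3:109316518-109316767, strand -: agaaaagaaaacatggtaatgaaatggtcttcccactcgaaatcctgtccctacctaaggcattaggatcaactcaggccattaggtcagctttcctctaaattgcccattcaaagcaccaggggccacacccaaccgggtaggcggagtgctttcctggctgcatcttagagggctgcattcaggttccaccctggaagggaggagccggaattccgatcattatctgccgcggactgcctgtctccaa
L1TD1, chr1:62194599-62194848, strand +: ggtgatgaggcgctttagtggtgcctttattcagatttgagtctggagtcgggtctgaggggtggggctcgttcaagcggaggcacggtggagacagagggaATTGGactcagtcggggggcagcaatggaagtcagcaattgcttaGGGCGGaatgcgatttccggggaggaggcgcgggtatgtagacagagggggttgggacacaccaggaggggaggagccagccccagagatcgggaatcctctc
UTF1, chr10:133229967-133230216, strand +: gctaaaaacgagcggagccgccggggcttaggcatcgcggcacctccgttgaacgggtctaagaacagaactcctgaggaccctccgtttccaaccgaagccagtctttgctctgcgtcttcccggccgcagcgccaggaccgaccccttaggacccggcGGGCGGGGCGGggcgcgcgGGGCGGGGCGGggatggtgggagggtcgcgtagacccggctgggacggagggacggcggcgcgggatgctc
ZFP42, chr4:187995521-187995770, strand +: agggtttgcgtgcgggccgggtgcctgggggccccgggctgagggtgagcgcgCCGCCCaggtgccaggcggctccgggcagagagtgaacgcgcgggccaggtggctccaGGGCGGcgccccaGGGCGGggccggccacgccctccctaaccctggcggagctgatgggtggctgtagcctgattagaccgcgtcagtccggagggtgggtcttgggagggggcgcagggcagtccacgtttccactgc
These windows differed in base composition. The GC content was 52.0% for DPPA2, with 7 CpG dinucleotides, and 59.6% for L1TD1, with 12. UTF1 had 70.8% and 32 CpG, and ZFP42 had 74.4% and 23. Over all 22132 annotated 5′ ends of protein-coding genes the median GC content was 62.0%. The DPPA4 window held 43.2% GC and 3 CpG, and the windows of the LIN28B starts held 73.6% and 38.4%.

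The windows were searched on both strands for 6 motifs, none of which contains another. The octamer core ATGCAAA was in none of the 7 member windows and in 3.50% of all windows. The SOX-type site CATTGTT was also in none of them, and 2.07% of all windows held it. The TATA box TATAAA was likewise missing from the 7 and present in 9.0% of all windows. The GC box GGGCGG was found 4 times before UTF1, in pairs that overlap by 1 base, 3 times before ZFP42 and once before L1TD1 and DPPA4, with 2 copies at the first LIN28B start, and 53.7% of all windows held it. The CCAAT box lay 148 bases before the L1TD1 start, on the opposite strand, and also before DPPA4 and the second LIN28B start, and was in 32.7% of all windows. The E-box CACGTG was found at the second LIN28B start alone among the members, against 7.37% of all windows. The DPPA2 window held none of the 6.

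The signal at a peak is given as its pileup, the number of reads or fragments stacked at the summit, solved from the fold enrichment and p-value that the authors deposited. Ratios are hTBLC over primed, divided by 1.09, the relative depth. Libraries were compared at a gene's start by the strongest summit within 1 kb of it. A ratio was formed only where both summits lay in the same accessible locus, that is in overlapping peaks. The 5′ ends past 1.5-fold in either direction were counted. Of the 7 annotated 5′ ends, 5 had both summits in the same locus, and of these 1 was at least 1.5-fold higher in hTBLCs and 1 at least 1.5-fold lower. Over 16105 such 5′ ends of all protein-coding genes, 10.3% were that much higher and 11.9% that much lower. The median ratio there was 1.02, with quartiles of 0.82 and 1.24.

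**Figure D1:**
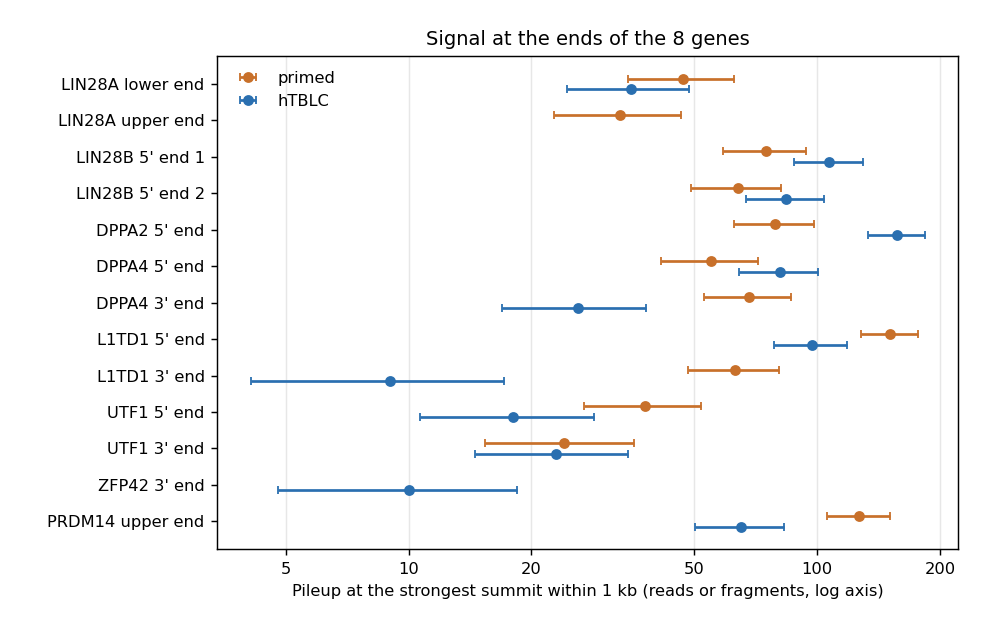
Pileup (reads or fragments, log axis) at the strongest summit within 1 kb of each gene end with a peak, for the primed (orange) and hTBLC (blue) library; points are the pileups and bars exact Poisson 95% intervals. At the starts of DPPA2 and L1TD1 and the upper end of PRDM14 the bars do not overlap. There hTBLC is higher at DPPA2 (157 against 79) and lower at L1TD1 (97 against 151) and PRDM14 (65 against 127). The bars also do not overlap at the 3′ ends of DPPA4 (26 against 68) and L1TD1 (9 against 63), where hTBLC is lower.

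DPPA2 had the highest ratio of the 5′ ends. The gene lies on the minus strand of chromosome 3 at 109293788 to 109316517 (hg38), and its start was covered by a single narrow peak in each library. The pileup was 79 (62.5 to 98.5) in primed cells and 157 (133 to 184) in hTBLCs. The summits lay 17 bp and 7 bp from the annotated start. The hTBLC signal was thus the higher, with intervals that did not overlap, at a ratio of 1.81 (1.38 to 2.41). Of the 186 loci near the 8 genes this one had the highest hTBLC pileup, and its fold enrichment over local background was 22.4 in hTBLCs and 13.5 in primed cells.

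DPPA4 lies 9627 bp from DPPA2 on the same strand, at 109326144 to 109339636. Its annotated start is at 109337546, inside the gene's outermost bounds. The pileup there was 55 (41.4 to 71.6) in primed cells and 81 (64.3 to 101) in hTBLCs, with a ratio of 1.34 (0.94 to 1.93). This interval included 1, while without scaling for depth the ratio was 1.47 (1.03 to 2.11), which excluded it. When the closest pair of summits was taken instead, at a weaker shoulder of the peak, the ratio was 0.86 (0.51 to 1.44). The other end of DPPA4 faces the DPPA2 start and went the opposite way. A locus there at 109324842 to 109326102, 8821 bp upstream of DPPA2, had a pileup of 68 (52.8 to 86.2) in primed cells and 26 (17.0 to 38.1) in hTBLCs, for a ratio of 0.35 (0.21 to 0.56). Its second primed summit, 205 bp from the DPPA4 end, had 56 (42.3 to 72.7), also above the hTBLC value at that place. Between the genes there was thus a locus that was less open in hTBLCs, next to a DPPA2 start that was more open.

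Upstream of DPPA4, the locus of highest primed pileup in the pair's neighbourhood lay at 109355149 to 109356714, 18250 bp before the DPPA4 start. Its primed pileup was 118 (97.7 to 141) and its hTBLC pileup 109 (89.5 to 131), for a ratio of 0.84 (0.64 to 1.1), so no difference was detectable there. A further locus 45233 bp upstream of DPPA4 had 42 (30.3 to 56.8) against 19 (11.4 to 29.7), for a ratio of 0.41 (0.23 to 0.73). The DPPA2 and DPPA4 windows have 17 loci in common, which were counted once in the totals.

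L1TD1 had the most shared loci at least 1.5-fold lower in hTBLCs of the 8 genes. It lies on the plus strand of chromosome 1 at 62194849 to 62212328. At its start the pileup was 151 (128 to 177) in primed cells and 97 (78.7 to 118) in hTBLCs, with intervals that did not overlap and a ratio of 0.59 (0.45 to 0.76). The lower hTBLC signal was seen on both sides of the start. A locus 13131 bp upstream, at 62180777 to 62182522, had a primed pileup of 91 (73.3 to 112) against 39 (27.7 to 53.3). One 3439 bp downstream, inside the gene, had 52 (38.8 to 68.2) and 27 (17.8 to 39.3), at summits 621 bp apart. The ratios of these loci were 0.39 (0.26 to 0.58) and 0.47 (0.29 to 0.77).

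By the strongest summits, the lowest ratio near any of the 8 genes lay just beyond the 3′ end of L1TD1, at 62212397 to 62213959. It was chosen for description after its value was seen. The pileup there was 63 (48.4 to 80.6) in primed cells and 9 (4.12 to 17.1) in hTBLCs, a ratio of 0.13 (0.057 to 0.26). These summits lay 301 bp apart. The primed summit closest to the hTBLC one had 45 (32.8 to 60.2), and with it the ratio was 0.18 (0.079 to 0.38). In primed cells the locus was 1563 bp wide and held 4 summits, and hTBLCs had a single weak summit of −log10 q 2.23 in it. The local background behind these calls was 9.84 in primed cells and 2.28 in hTBLCs, so the signal around the peak was also higher in primed cells. Of the 11 loci near L1TD1 that both libraries shared, 10 had a ratio below 1 and 8 were at least 1.5-fold lower. The 1 above, at 1.40 (0.70 to 2.89), lay inside KANK4, a gene 23837 bp from L1TD1. Loci in hTBLCs alone also lay inside KANK4, the strongest with a pileup of 29 (19.4 to 41.6).

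PRDM14 lies on chromosome 8 at 70051651 to 70071252. It is known to be transcribed toward lower coordinates, so its upper end is the start, although the tables used here gave no strand for it. At this end the pileup was 127 (106 to 151) in primed cells and 65 (50.2 to 82.8) in hTBLCs, a ratio of 0.47 (0.34 to 0.64). The lower end had no peak in either library. A second summit, 788 bp further out in primed cells and 785 bp in hTBLCs, had the same direction, with 95 (76.9 to 116) and 41 (29.4 to 55.6). The local background was 17.8 in primed cells and 12 in hTBLCs, against the lowest backgrounds of 1.79 and 1.96 in these lists. Fold enrichment over the local background at the upper end was 6.79 in primed cells and 5.09 in hTBLCs.

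Beyond the gene's lower end, a PRDM14 locus at 70034569 to 70035763 had pileups of 81 (64.3 to 101) and 32 (21.9 to 45.2), with a ratio of 0.36 (0.23 to 0.55). A locus inside the gene at 70060710 to 70062015 did not share this difference, with 59 (44.9 to 76.1) in primed cells and 68 (52.8 to 86.2) in hTBLCs and a ratio of 1.05 (0.73 to 1.52). Of the 11 shared loci near PRDM14, 6 were at least 1.5-fold lower in hTBLCs and 0 at least 1.5-fold higher.

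LIN28A, on chromosome 1 at 26410817 to 26429728, differed in direction from locus to locus. Both ends were examined, and the lower end is known to be the start of the gene. The pileup at that end was 47 (34.5 to 62.5) in primed cells and 35 (24.4 to 48.7) in hTBLCs, a ratio of 0.68 (0.43 to 1.08). A separate locus 1315 bp further out, at 26409301 to 26409861, was the stronger in hTBLCs, with 56 (42.3 to 72.7) against 91 (73.3 to 112) and a ratio of 1.48 (1.05 to 2.11). With a window of 2500 bp that locus stands for the end, so the direction of the LIN28A end depended on the window.

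Inside LIN28A both of the strongest loci were lower in hTBLCs. The first, at 26416989 to 26417399, had pileups of 113 (93.1 to 136) and 55 (41.4 to 71.6) and a ratio of 0.44 (0.32 to 0.62). The second, at 26418408 to 26419414, had 136 (114 to 161) and 59 (44.9 to 76.1) and a ratio of 0.40 (0.29 to 0.54). The gene table gives no exons, so these were placed only in the gene body. Their fold enrichment over local background differed less between primed cells and hTBLCs. It was 7.89 and 7.11 at the first locus and 11.2 and 9.32 at the second. The local background was also higher in primed cells, at 13.4 against 6.88 and 11.2 against 5.44. The upper end of LIN28A had a peak in primed cells alone, with a pileup of 33 (22.7 to 46.3). The next locus, 166 bp from the start of DHDDS, a dolichol synthesis gene that lies 2593 bp from LIN28A, had 95 (76.9 to 116) and 100 (81.4 to 122) and a ratio of 0.96 (0.72 to 1.29).

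LIN28B, the paralogue on chromosome 6 at 104937026 to 105083332, was open at both annotated starts in both libraries. At the first start a single locus of 1433 bp held 4 summits per library. The pileups of the strongest were 75 (59.0 to 94.0) in primed cells and 107 (87.7 to 129) in hTBLCs, a ratio of 1.30 (0.96 to 1.77), (unscaled 1.43, 1.05 to 1.94), but these summits lay 973 bp apart. The hTBLC summit closest to the strongest primed one had a pileup of 56 (42.3 to 72.7), and with it the ratio was 0.68 (0.47 to 0.98). The direction at this start thus depended on which part of the locus was read. On the downstream side, 593 bp and 588 bp after the start, the values were 73 (57.2 to 91.8) and 107 (87.7 to 129). At the second start the strongest summits had 64 (49.3 to 81.7) and 84 (67.0 to 104), a ratio of 1.20 (0.86 to 1.69), while the summits nearest to each other, downstream of this start, gave 0.85 (0.58 to 1.25).

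The shared loci near LIN28B, a gene that spans 146307 bp, leaned the other way from those near L1TD1. Of 19 shared loci inside LIN28B or within 50 kb of it, 15 had a ratio above 1, 5 were at least 1.5-fold higher in hTBLCs and 1 at least 1.5-fold lower. Inside the gene lay 14 of the 19, of which 11 had a ratio above 1, 3 were at least 1.5-fold higher and 0 at least 1.5-fold lower. The highest ratios lay deep in the gene, where pileups were small. A locus at 105056443 to 105056991 had 12 (6.20 to 21.0) in primed cells and 31 (21.1 to 44.0) in hTBLCs, a ratio of 2.36 (1.18 to 5.04). Another at 105036444 to 105036708 had 16 (9.15 to 26.0) and 38 (26.9 to 52.2), a ratio of 2.17 (1.18 to 4.17). Both were picked out after their values were seen.

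UTF1 is a short gene of 1342 bp on the plus strand of chromosome 10, at 133230217 to 133231558. It had peaks within 1 kb of its start in both libraries, but none of them overlapped. In primed cells the strongest summit lay 876 bp upstream with a pileup of 38 (26.9 to 52.2), and a weak one 181 bp upstream had 14 (7.65 to 23.5). In hTBLCs the only summit lay 303 bp downstream, inside the gene, with 18 (10.7 to 28.4). At 2.81% of all annotated 5′ ends the strongest summits of the libraries lay in loci that did not overlap. This share is of a looser event, since weaker peaks there may still overlap. Just past the gene, 2139 bp from its start, both libraries had a weak locus with pileups of 24 (15.4 to 35.7) and 23 (14.6 to 34.5).

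The wider neighbourhood of UTF1 held 3 loci that were at least 2-fold lower in hTBLCs. One 10120 bp upstream, inside KNDC1, had 60 (45.8 to 77.2) in primed cells and 21 (13 to 32.1) in hTBLCs, giving 0.32 (0.18 to 0.53). One 27711 bp downstream had 74 (58.1 to 92.9) against 28 (18.6 to 40.5), giving 0.35 (0.22 to 0.54). The lowest, at 133276441 to 133277426, lay 120 bp from the start of ADAM8, a membrane metalloprotease gene, with 106 (86.8 to 128) against 21 (13 to 32.1), giving a ratio of 0.18 (0.11 to 0.29). The start of VENTX, a homeobox gene 6297 bp from UTF1, had the higher value in hTBLCs, with 32 (21.9 to 45.2) and 51 (38 to 67.1), for a ratio of 1.46 (0.92 to 2.34), or 1.59 without scaling, where the interval just excluded 1. Of the 8 shared loci near UTF1, 3 were at least 1.5-fold lower and 0 at least 1.5-fold higher.

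The locus of highest primed fold enrichment near UTF1 lay in MIR202HG, the host transcript of MIR202, 16982 bp from the UTF1 start. Its pileups of 91 (73.3 to 112) and 79 (62.5 to 98.5) gave a ratio of 0.79 (0.58 to 1.08). The mature sequence of miR-202-3p (RefSeq, GRCh38.p14) is shown beside that of let-7a, the family that LIN28 proteins act on, with the seed, bases 2 to 8, in capitals.
hsa-miR-202-3p: aGAGGUAUagggcaugggaa
hsa-let-7a-5p: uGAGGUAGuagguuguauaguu
The seeds agree at 6 of 7 bases. No relation between this locus and the LIN28 genes was tested.

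ZFP42, on the plus strand of chromosome 4 at 187995771 to 188005246, had no peak within 1 kb of its start in either library. Over all annotated 5′ ends, 17.9% had a peak in neither. The closest peak was a primed one 1688 bp upstream, with a pileup of 17 (9.90 to 27.2), and no hTBLC peak overlapped it. Next to it, a locus 2594 bp upstream was present in both libraries, with 22 (13.8 to 33.3) in primed cells and 15 (8.40 to 24.7) in hTBLCs. The peaks in hTBLCs alone at the other end of the gene lay at its 3′ end, 217 bp and 542 bp past it, each with a pileup of 10 (4.8 to 18.4). The start of this marker of embryonic stem cells was thus without a called peak in both libraries, at a depth where the weakest called peaks had pileups of 6 and 7.

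The stronger loci of ZFP42 lay downstream. A locus 21209 bp from the start had 65 (50.2 to 82.8) in primed cells and 49 (36.3 to 64.8) in hTBLCs, giving a ratio of 0.69 (0.47 to 1.01). One at 36670 bp had 75 (59.0 to 94.0) and 78 (61.7 to 97.3), giving 0.95 (0.68 to 1.32). Of the 9 shared loci near ZFP42, 2 were at least 1.5-fold lower and 0 at least 1.5-fold higher, and the intervals of both of the strong ones included 1.

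**Figure D2:**
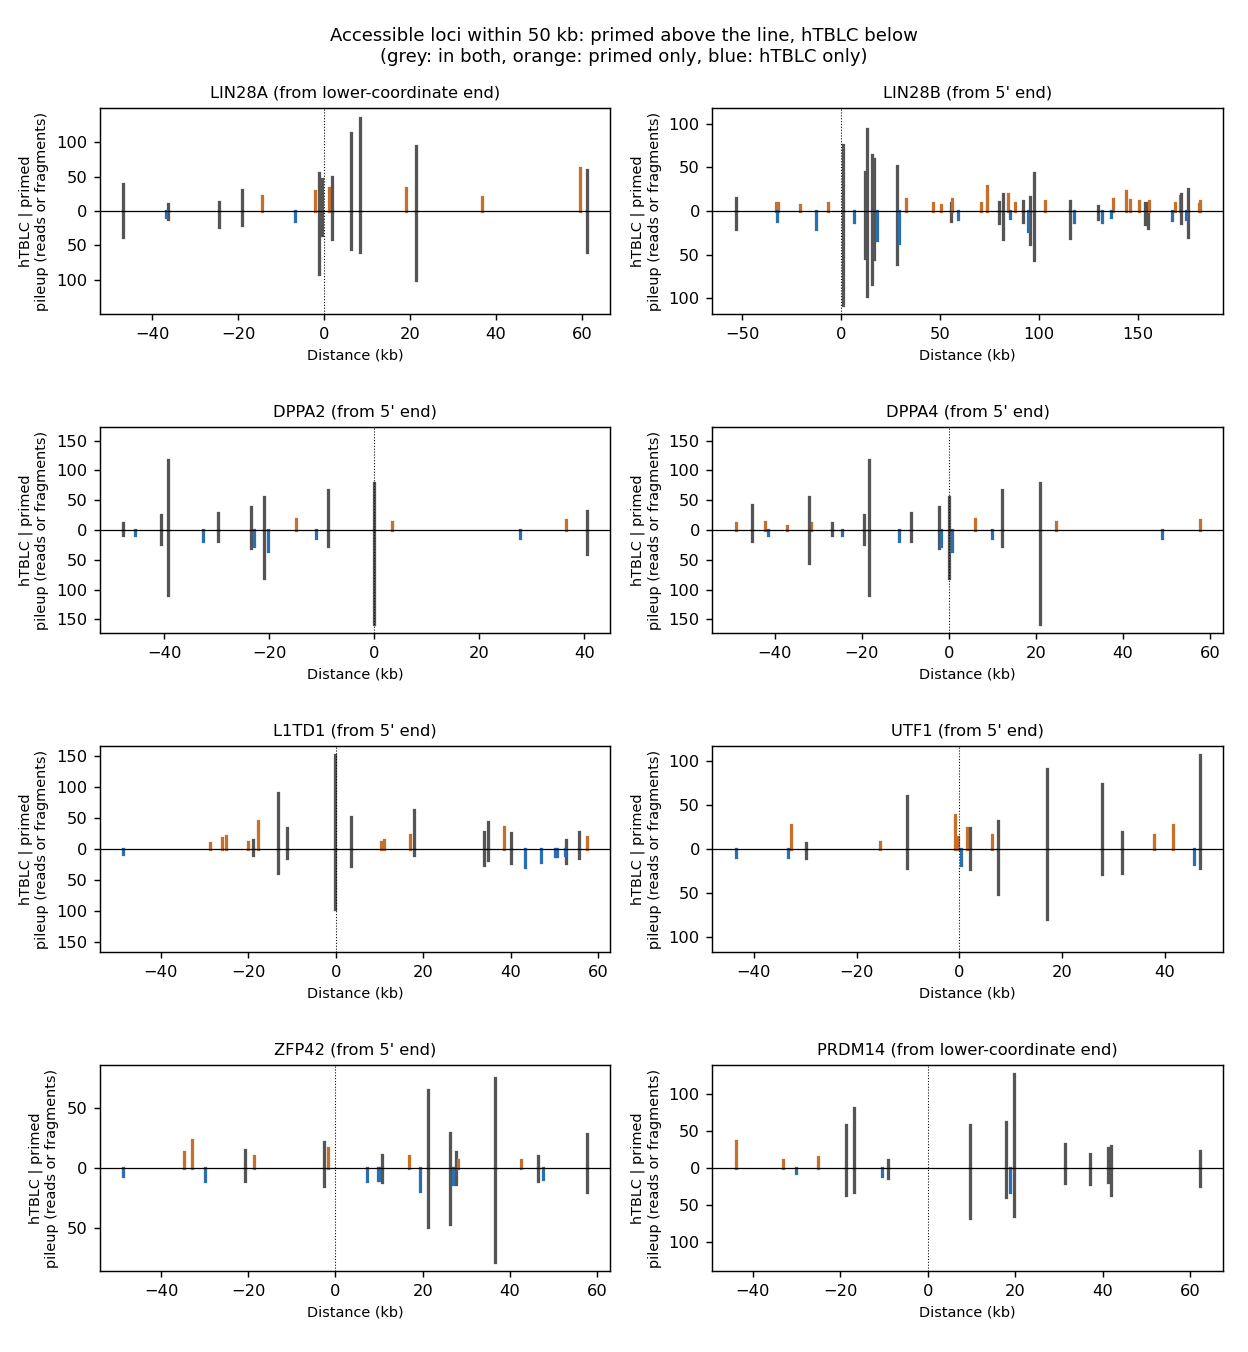
Each line is an accessible locus within 50 kb of the gene, placed by distance in kb from the 5′ end, or from the lower-coordinate end for LIN28A and PRDM14, with the primed pileup above and the hTBLC pileup below the axis. Grey loci are in both libraries, orange in primed and blue in hTBLCs alone; the first start of LIN28B and that of DPPA2 extend further below the axis, and the locus past the 3′ end of L1TD1 extends mainly above it.

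The neighbourhoods were then compared by which loci each library had. Over the 8 genes there were 186 loci, of which 80 (43.0%, 36.1 to 50.2, Wilson interval) were in both libraries, 63 in primed cells alone and 43 in hTBLCs alone. Over all 241048 loci within 50 kb of protein-coding genes, 27.8% were primed-only and 26.5% hTBLC-only. Of the 106 member loci in a single library, 40.6% (31.7 to 50.1) were in hTBLCs alone, and the same share over all protein-coding genes was 48.9%. That share lay inside the members' interval.

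**Figure D3:**
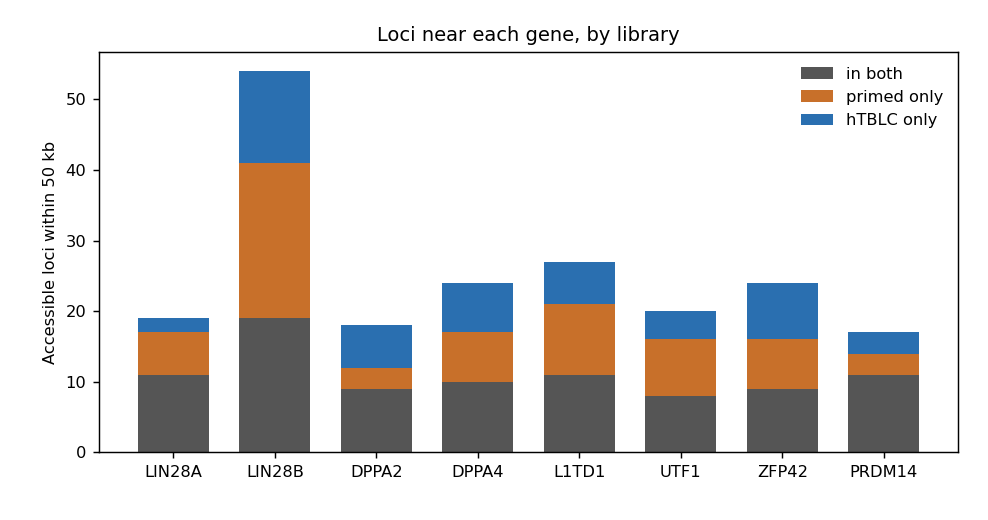
Number of accessible loci within 50 kb of each gene, split into loci in both libraries (grey), in primed alone (orange) and in hTBLCs alone (blue). LIN28B, the longest gene, had the most loci (54), with 22 in primed and 13 in hTBLCs alone; loci of the DPPA2 and DPPA4 windows overlap.

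Single-library loci were also counted by gene. For each of the 8 genes the interval of the hTBLC-only share included the 48.9% over all protein-coding genes. The intervals were wide, such as 7.15 to 59.1% at LIN28A and 35.4 to 87.9% at DPPA2, so no difference between genes was detectable. Primed-only loci were the more numerous at LIN28A (6 against 2), LIN28B (22 against 13), L1TD1 (10 against 6) and UTF1 (8 against 4). The DPPA2 window had 3 primed-only and 6 hTBLC-only loci, and the DPPA4 window had 7 of each. These are not separate observations, since 17 of the 18 loci of the DPPA2 window, among them all its single-library loci, also lie in the DPPA4 window. PRDM14 had 3 of each, and ZFP42 had 7 and 8. Most were weak, with a median pileup of 14 in primed and 12 in hTBLCs. Of these loci, 11 primed-only and 3 hTBLC-only ones had a −log10 q of at least 10. Near all protein-coding genes 10149 of 66914 primed-only and 7795 of 63931 hTBLC-only loci did, so primed-only loci were the more numerous there too.

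The single-library loci of highest fold enrichment were spread over several genes. The strongest primed-only locus lay 43.9 kb below the lower end of PRDM14, at 70007567 to 70008082, with a fold enrichment of 13 and a pileup of 37 (26.1 to 51.0). The second, at 105014413 to 105014798 inside LIN28B, had 29 (19.4 to 41.6). The third lay 32.9 kb upstream of ZFP42, at 187962699 to 187963234, with 23 (14.6 to 34.5). By pileup the highest primed-only locus had 62 (47.5 to 79.5) and was picked after its value was seen. It lay inside DHDDS, 1949 bp from the annotated start of HMGN2, a gene 42712 bp from LIN28A. The first 2 hTBLC-only loci belonged to LIN28B. One lay inside the gene at 104969854 to 104970110, with a pileup of 36 (25.2 to 49.8), and the other 12648 bp before its first start, with 20 (12.2 to 30.9). The third lay 6.84 kb from the lower end of LIN28A, with 15 (8.40 to 24.7).

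The loci in both libraries were compared by signal. Of the 80 shared member loci, 27 (33.8%, 24.3 to 44.6) were at least 1.5-fold lower in hTBLCs and 7 (8.75%, 4.30 to 17.0) at least 1.5-fold higher. Over all shared loci near protein-coding genes, 27.1% were that much lower and 15.4% that much higher, and both lay inside the members' intervals. Without scaling for depth, 22 member loci (27.5%) were that much lower and 12 (15%) that much higher, against 22.5% and 20.3% over all genes. The members' median log2 ratio was −0.16, against −0.13 over all genes. Among the 48 member loci with pileups of at least 20 in both libraries, 10 were at least 2-fold lower in hTBLCs and 0 at least 2-fold higher. Over all genes 8.75% of such loci were 2-fold lower and 3.48% 2-fold higher. These 10 belonged to UTF1 (3), LIN28A, L1TD1 and PRDM14 (2 each) and the interval between DPPA2 and DPPA4 (1).

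**Figure D4:**
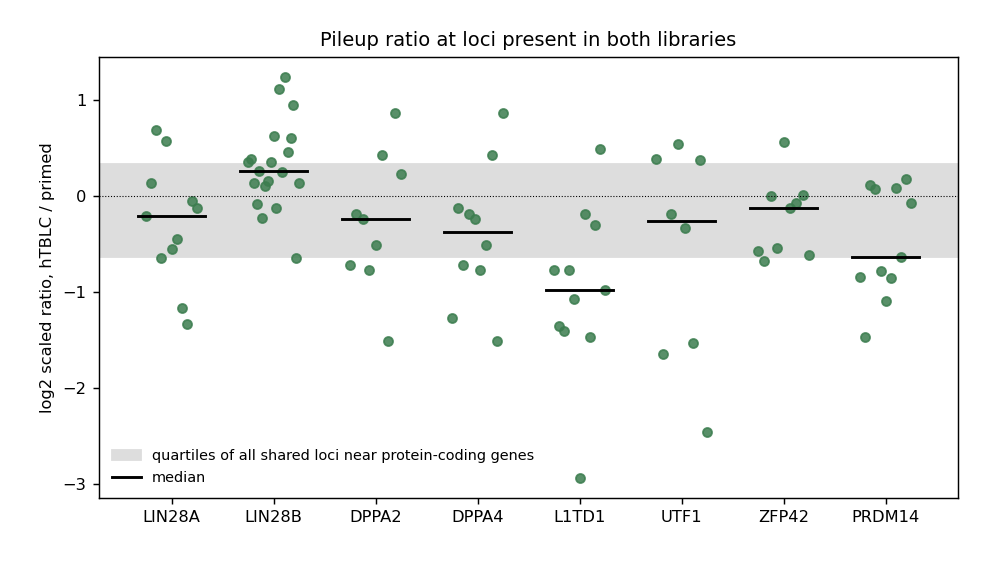
Log2 of the depth-scaled hTBLC to primed pileup ratio (vertical axis) for every locus that both libraries shared near each gene, with the gene's median as a black line and the quartiles of all such loci near protein-coding genes as a grey band (−0.64 to 0.33). L1TD1 has the lowest median (−0.98) and LIN28B the highest (0.26).

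By gene median, L1TD1 and LIN28B stood at opposite ends. The median ratio was 0.51 at L1TD1, 0.64 at PRDM14, 0.77 at DPPA4, 0.83 at UTF1, 0.84 at DPPA2, 0.87 at LIN28A, 0.91 at ZFP42 and 1.20 at LIN28B. Over 16906 protein-coding genes with at least 5 shared loci, the quartiles of the gene median were 0.77 and 1.03. A lower median than that of L1TD1 was found for 0.72% of those genes, and a lower one than that of PRDM14 for 7.13%. For LIN28B the figure was 91.4%. The other 5 medians lay between the quartiles. These ranks describe 1 pair of libraries, and neighbouring genes share loci.

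Other genes of the same network were read from a list of 32 that covers core factors, partners of LIN28 and PRDM14 and relatives of the members. Of 20 with an annotated 5′ end in the promoter table, 14 had the same locus in both libraries. At 2 the strongest summits lay in loci that did not overlap. A peak in hTBLCs alone was found at 1, and 3, DPPA3, DPPA5 and ZFP57, had none. At least 1.5-fold higher in hTBLCs was 1 gene, DNMT3B, which encodes a de novo DNA methyltransferase, with pileups of 49 (36.3 to 64.8) and 85 (67.9 to 105) and a ratio of 1.58 (1.1 to 2.30). At least 1.5-fold lower were 2 genes, NANOG, with a ratio of 0.55 (0.30 to 0.97), (unscaled 0.60, 0.33 to 1.06), and CRIPTO (listed as TDGF1), which encodes a NODAL co-receptor. CRIPTO had 83 (66.1 to 103) and 17 (9.90 to 27.2), a ratio of 0.19 (0.10 to 0.32). Over all 16105 5′ ends with the same locus in both libraries, 10.3% were at least 1.5-fold higher and 11.9% at least 1.5-fold lower. Among 14 genes, 1 higher and 2 lower are close to those shares. TRIML1, a gene beyond ZFP42 on chromosome 4, had a peak in hTBLCs alone, with a pileup of 14 (7.65 to 23.5).

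The genes of let-7 turnover had ratios above 1, as did the median of the 14 listed genes with a shared 5′ locus (1.20). Over all such 5′ ends the quartiles were 0.82 and 1.24. TUT4, TUT7 and DIS3L2 act in the tailing and decay of let-7 precursors. TUT4, read at a gene end and not at an annotated 5′ end, had a ratio of 1.43 (1.01 to 2.02). TUT7 and DIS3L2, read at annotated 5′ ends, had 1.20 (0.94 to 1.52) and 1.19 (0.87 to 1.64). TRIM71, a let-7 target gene, had 1.44 (1.0 to 2.1), or 1.58 without scaling. IGF2BP1 and HMGA2, also listed and each read at a gene end, had 0.85 (0.62 to 1.16) and 1.06 (0.69 to 1.64). For the 12 listed genes without an entry in the promoter table, the stronger gene end was read: 8 had the same locus in both libraries, and 0 of these were at least 1.5-fold lower in hTBLCs. LEFTY1, which encodes an inhibitor of NODAL signalling, had a ratio of 1.57 (1.02 to 2.45). POU5F1 had a gene end peak in primed cells alone.

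Likeness to the listed genes was measured as the distance in log2 pileup over the 2 libraries, among the 14 with a shared 5′ locus. The first LIN28B start was closest to EED (77 and 103, distance 0.067), the second to FOXO1 (65 and 89, distance 0.086) and DPPA4 to TRIM71 (50 and 79, distance 0.14). DPPA2 was closest to TCF7L1 (112 and 166, distance 0.51), and PRDM14 to SOX2 (89 and 79, distance 0.59). L1TD1 was closest to YY1 (93 and 93, distance 0.70) and LIN28A to CBFA2T2 (28 and 37, distance 0.75), whose own ratios, 0.91 (0.68 to 1.23) and 1.21 (0.72 to 2.05), had intervals that include 1.

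Peaks at the ends of marker genes were set beside the cell type label. Over all annotated 5′ ends 17.9% had a peak in neither library. Most genes of any kind thus have a peak, and its presence cannot decide the cell type. LIN28A, a member, is also among the embryonic stem cell markers. Of 7 embryonic stem cell markers, 7 had a peak in primed cells and 6 in hTBLCs, where POU5F1 had none, with pileups of 35 to 125 and 17 to 118. Of 5 fibroblast markers, which would mark feeder cells, 3 and 5 had a peak, with 31 to 90 and 14 to 76. COL3A1 and POSTN were the ones without a called peak in primed cells, and each had a pileup of 14 in hTBLCs. Of 4 trophoblast markers 3 and 2 had one, with 50 to 67 and 14 to 112, and CGA had none in either. All 4 endoderm and all 3 neural markers had one in both libraries, with 19 to 67 and 33 to 117 for endoderm and 28 to 57 and 24 to 45 for neural genes. Their part in the results above was not tested. In bulk libraries, fewer cells with an open locus and less signal per cell cannot be told apart.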

How the data were processed

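The members and lists were chosen with earlier results of these data known. Bowtie2, Picard, MACS2 and the build hg38 are named in the submitters' processing notes. Versions, settings, the transposase offset and the treatment of duplicates were not given in the sources used here. The authors deposited 1 peak list per library, called separately, with a score (not used), a fold enrichment ratio over local background, a −log10 p-value and a −log10 q-value per peak.

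Whole pileups were solved from the deposited fold, taken as pileup plus 1 over background plus 1, and the −log10 p, taken as a Poisson upper tail. Whole numbers came out for 99.999% (primed) and 99.998% (hTBLC) of peaks, within 0.001 in −log10 p. The most frequent lowest backgrounds, 1.79 and 1.96, gave the relative depth of 1.09. Depth is taken from this background alone, as library totals were not used here, and median pileups were 18 and 17. The lists end at −log10 p of 2.00 and 2.83, and 252 and 327 ranks have no line, so a region there counts as absent. The solving step was tested on simulated data.

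On chromosomes 1 to 22 and X, peaks that overlap or touch were merged, and regions that overlap between libraries by at least 1 bp formed 1 locus. A locus belongs to a gene when a summit lies inside or within 50 kb of the RefSeq body (GRCh38.p14). Starts and strands came from the RefSeq promoter table. LIN28A and PRDM14, and listed genes without an entry, were read at both gene ends. With several starts, the one of highest summed pileup was used for listed genes. Pileups have exact Poisson, ratios exact conditional binomial and shares Wilson 95% intervals. No test was made between single libraries.

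Described were the 8 genes, listed genes with a 5′ peak in a single library or a ratio past 1.5-fold whose interval excludes 1, the closest listed gene to each member, neighbouring genes, the strongest 5′ locus of each member, the 3 strongest single-library loci per library, shared loci past 2-fold with both pileups of at least 20, and some loci chosen after their values were seen. These were the locus past L1TD1, the KANK4 loci, the deep LIN28B loci, the DHDDS locus, the outer locus upstream of DPPA4, secondary summits and those given as not different. The listed genes TUT4, TUT7, DIS3L2, TRIM71, IGF2BP1 and HMGA2 were described outside these rules. The result of 1 listed gene is not reported here. Alternatives were −log10 q minimums of 5 and 10, a common −log10 p floor, reciprocal overlap of 50%, sharing within 500 bp, distances of 10 and 100 kb, other scaling and start windows of 500 and 2500 bp. Summit pairing by distance, summits within 150 bp and leaving out each gene were added after the data were seen. Python 3.11.15 with numpy 2.4.6, scipy 1.17.1 and pandas 2.3.3 was used.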

Additional observations from a re-analysis of the deposited data

How the results depend on the processing

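No paired analysis was possible because each group has 1 library. The share of member loci in both libraries, 43.0%, was 52.7% and 51.4% with −log10 q minimums of 5 and 10 and 33.3% with reciprocal overlap of 50%, which changes what counts as shared. The hTBLC-only share of single-library loci, 40.6%, was 27.8% with the minimum of 10 applied to both lists before they were paired. The share of shared loci at least 1.5-fold higher in hTBLCs, 8.75%, was 2.63% with that minimum and 3.28% without LIN28B, which supplied 5 of the 7 loci. Without scaling it was 15%, and the share at least 1.5-fold lower, 33.8%, was 27.5%. The intervals of DPPA4 (1.47, 1.03 to 2.11), the first LIN28B start (1.43, 1.05 to 1.94), VENTX (1.59), TRIM71 (1.58) and TUT7 (1.31, 1.03 to 1.67) excluded 1 only without scaling, and that of NANOG only with it. The count of 5′ ends at least 1.5-fold lower, 1, was 0 when the closest summits were paired, since at L1TD1 that pair lies on a weaker shoulder (ratio 0.73, 0.38 to 1.37). Ratios that changed side of 1 were those of LIN28A with the window of 2500 bp (1.48), of the first LIN28B start with the window of 500 bp and with both summit pairings (0.68), of the second LIN28B start with the window of 500 bp and the closest summits (0.85), and of DPPA4 with the closest summits (0.86). Depth limits single loci: near LIN28B, pileups of 19 and 32 gave a ratio of 1.54 whose interval, 0.85 to 2.87, included 1.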
